A study of Sorghum bicolor with 12 samples.

Results

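SbMATE, the root citrate transporter of the sorghum aluminium tolerance locus, was followed through its single row, Sobic.003G403000, in a table of read counts from sorghum roots. It was chosen by identifier and not by its values, and it is 1 of the 20818 identifiers in the table. The table pairs no identifier with a name. The assignment of Sobic.003G403000 to SbMATE therefore rests on prior knowledge of the sorghum gene models and was not checked against a sequence. By the same numbering convention the gene lies on chromosome 3, and no build or coordinates were available to place it more closely.

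MATE proteins form a large family of membrane carriers for organic compounds. SbMATE sits in the plasma membrane of root cells and carries citrate out of the root. Citrate binds toxic aluminium ions in acid soil, and sorghum lines that express SbMATE strongly in the root tip are known to tolerate aluminium better. Its transcript is known to vary widely between sorghum lines and to respond to aluminium. The plants studied here were either subjected to water shortage or kept watered, and the labels mention no aluminium treatment.

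The series compared roots detached from mature plants of a pair of sister lines from a BC2F3 EMS-mutagenized family, in 4 groups of 3 biological replicates. NIL-bri1-72 carries a base change in the extracellular region of SbBRI1, the receptor for the plant steroid hormones called brassinosteroids, and NIL-WT-72 lacks it. The groups were NIL-bri1-72 in drought, meaning 30% of field capacity, NIL-bri1-72 kept watered, NIL-WT-72 in drought and NIL-WT-72 kept watered. The lines were assumed by the submitters to be near isogenic, and with 1 line per genotype the receptor change and other segments that differ between the lines cannot be told apart. The study asked which genes are early targets of SbBES1, a transcription factor downstream of the receptor, in drought. Whole detached roots were sequenced, so fewer cells of a type and less transcript per cell cannot be told apart.

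Library totals ran from 18640601 to 33296273 counts. Levels are given as CPM, a count relative to its library's total, after TMM scaling, which corrects the totals for composition. Against their own group means the libraries deviated by a root mean square of 0.183 to 0.396 log2 units over all genes. NIL-bri1-72 watered replicate 1 was the lowest of these values and NIL-WT-72 watered replicate 1 the highest. The lowest value listed for any gene was 8 to 13 reads, depending on the library, and SbMATE was at 4.67 to 17.5 times that floor. The labelled tissue could not be checked against marker genes, because 0 of the identifiers matched the RefSeq gene table used here.

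Every listed gene had reads in every library, so the presence of SbMATE was no result in itself. SbMATE was at a low count in each library. It averaged 3.63 ± 1.49 CPM over the 12 libraries (SD), and 17.1% of the listed genes had a lower mean CPM, a ranking by reads and not by transcripts per length. In droughted NIL-bri1-72 roots replicates 1, 2 and 3 held 93, 56 and 80 reads, or 3.54, 1.91 and 2.48 CPM. In watered NIL-bri1-72 roots they held 171, 53 and 57 reads, or 5.05, 2.12 and 2.30 CPM. Replicate 1 was the highest of its line in each regime, and the other 4 NIL-bri1-72 libraries lay within a narrow band.

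In droughted NIL-WT-72 roots replicates 1, 2 and 3 held 102, 88 and 193 reads, or 3.55, 2.80 and 7.12 CPM. In watered NIL-WT-72 roots they held 99, 86 and 100 reads, or 3.84, 4.55 and 4.29 CPM. Watered NIL-WT-72 was the most even group, and droughted replicate 3 held the highest level of the series. Its 95% counting interval, an exact Poisson interval that covers counting error only, ran from 6.15 to 8.20 CPM and did not reach the interval of any other library. That of watered NIL-bri1-72 replicate 1 ran from 4.32 to 5.87 CPM, above the upper bounds of 2.77 and 2.98 CPM in replicates 2 and 3.

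**Figure D1:**
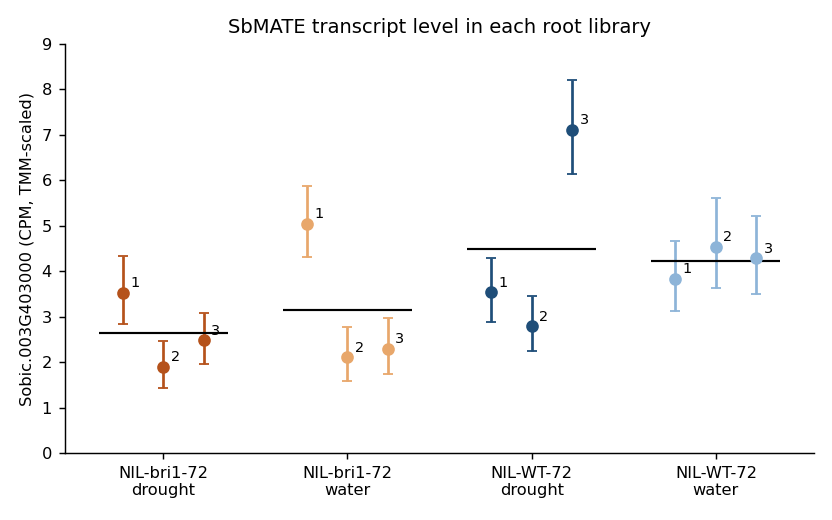
TMM-scaled CPM of Sobic.003G403000 (SbMATE) in each library, by line and water regime. Points are libraries with their replicate number, vertical bars are 95% Poisson counting intervals and horizontal lines are group means. Droughted NIL-WT-72 replicate 3 at 7.12 CPM and watered NIL-bri1-72 replicate 1 at 5.05 CPM lie apart from the rest of their groups.

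The plot of levels by library shows the group order. The mean was 2.64 ± 0.827 CPM in droughted and 3.16 ± 1.64 CPM in watered NIL-bri1-72, and 4.49 ± 2.31 CPM in droughted and 4.23 ± 0.357 CPM in watered NIL-WT-72 (SD, n = 3 each). Droughted NIL-WT-72 thus ranked highest, then watered NIL-WT-72, watered NIL-bri1-72 and droughted NIL-bri1-72. No neighbours in that order differed beyond their spread, and each pair of neighbouring groups overlapped. By medians the order of the regimes turned within each line, with 2.48 CPM in drought and 2.30 CPM in water in NIL-bri1-72, and 3.55 CPM in drought and 4.29 CPM in water in NIL-WT-72.

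Replicates of SbMATE differed by more than counting error in 3 of the 4 groups. The coefficient of variation was 31.3% in droughted NIL-bri1-72, 52.1% in watered NIL-bri1-72 and 51.4% in droughted NIL-WT-72, where counting alone gives 11.4%, 10.3% and 8.85%. In watered NIL-WT-72 it was 8.44%, where counting alone gives 10.3%. The biological coefficient of variation that edgeR estimated for the gene was 0.347, against 0.282 for the trend at its abundance and 0.209 in common for all genes. Only 7.74% of genes had a larger estimate.

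Whether SbMATE responds to drought was tested first in the mutant line. In NIL-bri1-72 the level was 2.64 ± 0.827 CPM in drought and 3.16 ± 1.64 CPM in water (SD, n = 3). The drought libraries lay above the watered ones in 4 of 9 library pairs and below them in the others. The log2 fold change was -0.27 (SE 0.41, 95% interval from -1.17 to 0.63), and it did not pass the threshold (adjusted p = 0.932 over all genes, by edgeR's quasi-likelihood test with Benjamini-Hochberg adjustment). An exact permutation test on log2 CPM gave p = 0.7, two-sided, where 3 against 3 libraries cannot go below 0.1. Of all genes tested in this comparison 0% were called, with 1518 at an unadjusted p below 0.05, and DESeq2 called 202. Without watered replicate 1 the log2 fold change of SbMATE was 0.25, so 1 library set its sign.

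In NIL-WT-72 the level was 4.49 ± 2.31 CPM in drought and 4.23 ± 0.357 CPM in water (SD, n = 3). Replicates 1 and 2 in drought lay below all 3 watered libraries and replicate 3 lay above them. The log2 fold change was 0.08 (SE 0.40, 95% interval from -0.80 to 0.97, edgeR adjusted p = 0.972). The difference of mean log2 CPM had the other sign, at -0.03 (exact permutation p = 1, two-sided). Without droughted replicate 3 the edgeR log2 fold change was -0.41 (edgeR adjusted p = 0.775). Over all genes 0.0144% were called in this comparison.

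Over both lines the 6 droughted libraries averaged 3.57 ± 1.85 CPM and the 6 watered libraries 3.69 ± 1.21 CPM (SD). The difference averaged over the lines was -0.09 in log2 units (SE 0.29, edgeR adjusted p = 0.922), where 1.28% of all genes were called. Its 95% interval ran from 0.604-fold to 1.45-fold, and changes within those bounds are not excluded. An exact permutation test with regimes relabelled within lines gave p = 0.735 (two-sided, 400 relabelings, smallest possible p = 0.005). In the same fit the median log2 fold change of all genes was 0.00081. Without watered NIL-bri1-72 replicate 1 the averaged value was 0.17, without droughted NIL-WT-72 replicate 2 it was 0.03, and without droughted NIL-WT-72 replicate 3 it was -0.34.

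**Figure D2:**
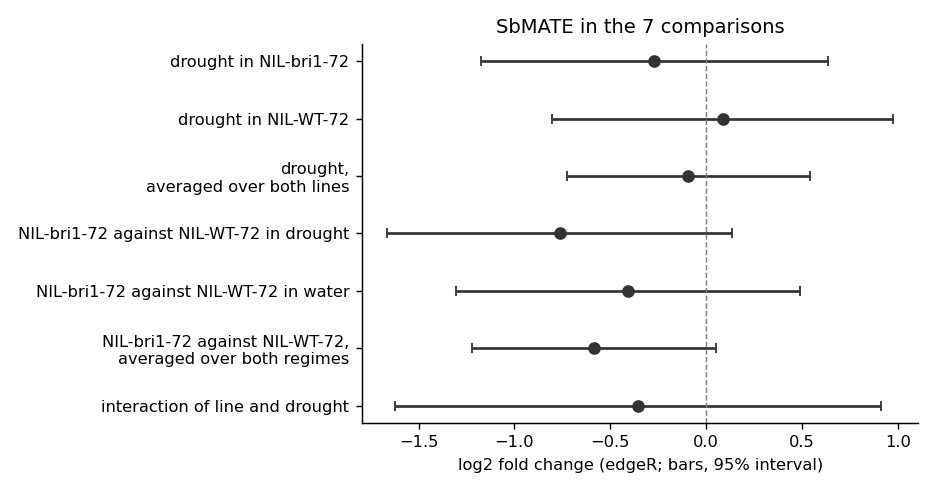
log2 fold change of Sobic.003G403000 (SbMATE) in each comparison, from the edgeR fit over 12 libraries, with bars for the 95% interval. Every interval includes 0, and that of NIL-bri1-72 against NIL-WT-72 averaged over both regimes reaches from -1.22 to 0.05.

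The lines were compared next, since the altered receptor could change the level of the transporter. In drought SbMATE averaged 2.64 ± 0.827 CPM in the NIL-bri1-72 libraries, against 4.49 ± 2.31 CPM in those of NIL-WT-72 (SD, n = 3). NIL-bri1-72 was the lower one in 8 of 9 library pairs. Over all genes 6.69% had no overlap between the lines in drought, and the share at 8 of 9 pairs was not computed. The log2 fold change was -0.76 (SE 0.41, 95% interval from -1.66 to 0.13) and did not pass (unadjusted edgeR p = 0.0883, adjusted p = 1.00; exact permutation p = 0.2). Without droughted NIL-WT-72 replicate 3 it was -0.27, without droughted NIL-WT-72 replicate 2 it was -1.01 and without droughted NIL-bri1-72 replicate 1 it was -1.04.

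In water the NIL-bri1-72 libraries averaged 3.16 ± 1.64 CPM, against 4.23 ± 0.357 CPM in those of NIL-WT-72 (SD, n = 3). Replicates 2 and 3 of NIL-bri1-72 lay below all 3 NIL-WT-72 libraries and replicate 1 lay above them. The log2 fold change was -0.41 (SE 0.41, 95% interval from -1.31 to 0.49), with an adjusted p of 0.919 by edgeR and an exact permutation p of 0.4. It was -0.93 without watered NIL-bri1-72 replicate 1, at an unadjusted edgeR p of 0.0430 and an adjusted p of 1.00. Without watered NIL-bri1-72 replicates 2 or 3 it was -0.19 or -0.23. Between the lines 0% of genes were called in drought, in water or averaged, with 515, 1091 and 1351 genes at an unadjusted p below 0.05. DESeq2 called 1, 4 and 32.

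Averaged over both regimes, SbMATE gave its lowest p of the 7 comparisons, and this value too did not pass. The 6 NIL-bri1-72 libraries ran from 1.91 to 5.05 CPM with a median of 2.39 CPM, and the 6 NIL-WT-72 libraries from 2.80 to 7.12 CPM with a median of 4.07 CPM. Of the NIL-bri1-72 libraries, 4 of 6 lay below every NIL-WT-72 library, and 5 of 6 lay below the NIL-WT-72 median. How many of all genes give such counts was not computed, so the counts only describe SbMATE. The log2 fold change was -0.59 (SE 0.29, 95% interval from -1.22 to 0.05), a level 0.666 times that of NIL-WT-72. Its edgeR p was 0.0671 unadjusted and 0.739 adjusted over all genes. With lines relabelled within regimes an exact permutation test gave p = 0.075 (two-sided, 400 relabelings). At its edgeR p or below were 8.91% of all genes, so values this low were common across the transcriptome. The sign was negative under each of the 20 alternatives run, 12 of which each left out 1 library. The alternative without a filter kept the same genes and repeated the main fit. The left-out values ran from -0.85 without watered NIL-bri1-72 replicate 1 to -0.34 without droughted NIL-WT-72 replicate 3, and the adjusted p over the 20 alternatives from 0.646 to 1.00. Unadjusted p was below 0.05 in 4 of the 20, all by edgeR, the lowest being 0.00942 without watered NIL-bri1-72 replicate 1.

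The interaction asked whether the lines differ in their response of SbMATE to drought. It was -0.36 on the log2 scale (SE 0.58, 95% interval from -1.62 to 0.91, edgeR adjusted p = 1.00), where 0% of all genes were called, 232 had an unadjusted p below 0.05 and DESeq2 called 0. It was 0.16 without watered NIL-bri1-72 replicate 1 and 0.14 without droughted NIL-WT-72 replicate 3. The interval thus allows a drought fold change in NIL-bri1-72 anywhere from 0.325 to 1.88 times that in NIL-WT-72.

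**Figure D3:**
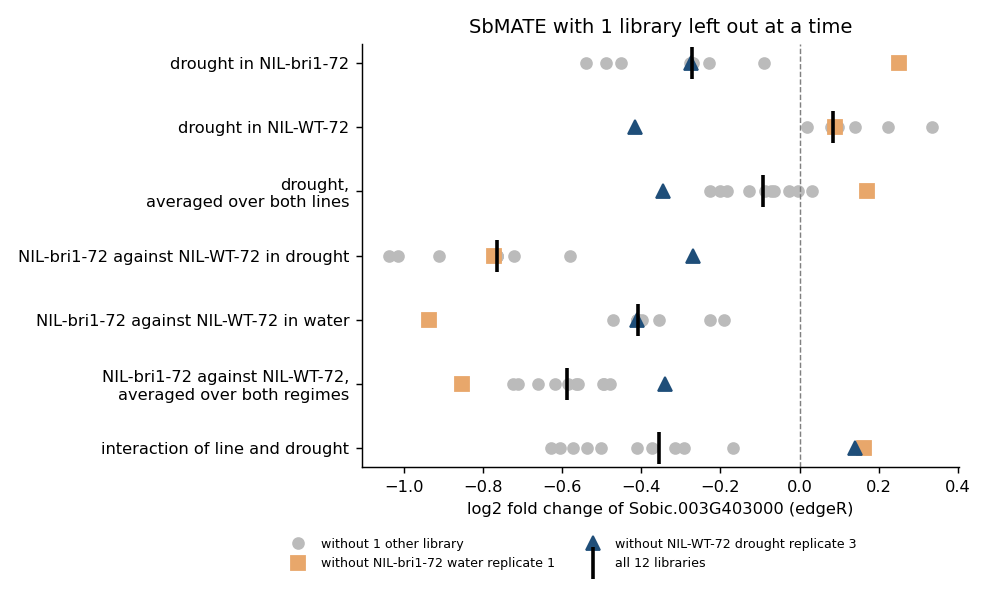
log2 fold change of Sobic.003G403000 (SbMATE) in each comparison with all 12 libraries (black bar) and with 1 library left out at a time (points). In each comparison the largest move comes from leaving out watered NIL-bri1-72 replicate 1 (square) or droughted NIL-WT-72 replicate 3 (triangle), and the 3 line comparisons stay below 0 throughout.

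The pair of libraries with high SbMATE was then set against the rest of the transcriptome, as a description chosen after the values were seen. In watered NIL-bri1-72 replicate 1 SbMATE was 2.20 times the higher of the other replicates. Over all genes, 21 reached that ratio in this library, SbMATE included, or 0.101%. In droughted NIL-WT-72 replicate 3 it was 2.01 times the higher of the other replicates, a ratio reached by 320 genes, or 1.54%. Genes at least 2 times above both other replicates numbered 34 in the first library and 323 in the second, and 2 genes were in both lists, 5.88% of the first and 0.619% of the second. These were SbMATE, whose place in both was fixed by the way the libraries were chosen, and Sobic.010G157500. Over all genes the first library deviated from its group by a root mean square of 0.183 log2 units, the lowest of its group and of all 12. The second deviated by 0.271 log2 units, the highest of its group, beside 0.219 and 0.206 in replicates 1 and 2, and its SbMATE value was not tested apart from that wider deviation.

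Sobic.010G157500, which the table does not name, had 2.81, 1.05 and 1.18 CPM in droughted and 4.05, 1.96 and 1.45 CPM in watered NIL-bri1-72 replicates 1, 2 and 3. In NIL-WT-72 it had 0.661, 1.69 and 3.91 CPM in drought and 2.02, 3.97 and 2.79 CPM in water. Its peaks in watered NIL-bri1-72 replicate 1 and droughted NIL-WT-72 replicate 3 were fixed by the way it was chosen. Replicate 1 was also the highest of droughted NIL-bri1-72, as for SbMATE. Its drought effect over both lines was -0.53 in log2 units (SE 0.43, adjusted p = 0.622 by edgeR).

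The genes whose pattern was most like that of SbMATE were ranked by Pearson's r of log2 CPM over the 12 libraries, among 20454 other genes with a mean of at least 1 CPM. The libraries are shared by all genes, so r is a description, and 90% of genes lay between -0.556 and 0.527. Sobic.009G014266 on chromosome 9 ranked first with r = 0.924. Sobic.006G016500 followed with 0.854, Sobic.003G012000 with 0.835, Sobic.009G116400 with 0.832 and Sobic.001G483001 with 0.831. The next gene had 0.830, so the end of this list is not a natural break. None of the 5 is named in the table.

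Sobic.009G014266 had 7.19, 4.42 and 5.46 CPM in droughted and 7.39, 4.52 and 5.86 CPM in watered NIL-bri1-72 replicates 1, 2 and 3. In NIL-WT-72 it had 5.50, 6.05 and 9.26 CPM in drought and 6.87, 7.40 and 7.90 CPM in water. Replicate 1 was the highest in each NIL-bri1-72 group and replicate 3 the highest of the series in droughted NIL-WT-72, as for SbMATE. The correlation of deviations from the group means was 0.909, so the likeness was also present within groups. The gene was picked over these same libraries, so this is no separate evidence. The range was narrower than that of SbMATE in this gene and in the other 4.

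For the 5 genes together, the median averaged log2 fold change was -0.03 for drought, beside 0.00081 over all genes, and -0.18 for NIL-bri1-72 against NIL-WT-72, beside -0.0029. All 5 were negative in the line comparison. In the 7 comparisons 0 of 5 were called, where 1.28% of all genes were for drought averaged, 0.0144% for the response of NIL-WT-72 and 0% elsewhere, so that count says nothing particular about them. Since they were picked for following SbMATE over these same libraries, their signs are no separate evidence. Ranked by Spearman's rho, 3 of the 5 stayed among the first 5. Ranked by deviations from the group means, 1 did.

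**Figure D4:**
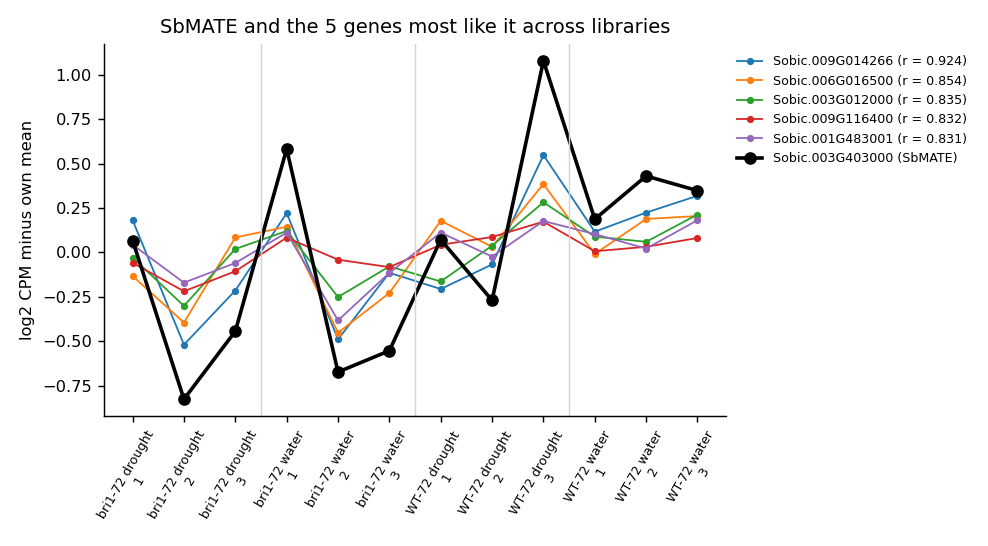
log2 CPM minus each gene's own mean over the 12 libraries, for Sobic.003G403000 (SbMATE, black) and the 5 genes with the highest Pearson r with it. SbMATE moves over the widest range, and 5 of the 6 curves peak in droughted NIL-WT-72 replicate 3, while Sobic.001G483001 had 8.01 CPM there and 8.03 CPM in watered NIL-WT-72 replicate 3.

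The identifiers next to SbMATE by number were examined as its surroundings on chromosome 3, where it is number 2706 of 3017 listed genes. The 5 before it were Sobic.003G402400, Sobic.003G402500, Sobic.003G402600, Sobic.003G402800 and Sobic.003G402900. The 5 after it were Sobic.003G403300, Sobic.003G403400, Sobic.003G403500, Sobic.003G403700 and Sobic.003G404000. Identifiers between these that the table lacks were not analysed here. The neighbours did not follow SbMATE from library to library, with r from -0.713 to 0.249 and a median of -0.0931. The lowest r was that of Sobic.003G404000 and the highest that of Sobic.003G403500.

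Of the 10 neighbours, 1 was called for drought averaged over both lines, where 1.28% of all genes were. That gene, Sobic.003G403300, is the listed identifier that follows SbMATE. It had 9.12, 11.6 and 7.23 CPM in droughted and 4.93, 6.79 and 4.12 CPM in watered NIL-bri1-72 replicates 1, 2 and 3. In NIL-WT-72 it had 14.9, 12.2 and 8.19 CPM in drought and 7.06, 5.60 and 4.64 CPM in water. In each line the drought values did not overlap the watered ones, as for 12.2% of all genes in NIL-bri1-72 and 12.3% in NIL-WT-72. The gene rose, with a log2 fold change of 0.92 (SE 0.19, adjusted p = 0.0473 by edgeR), but it lost its call in 11 of 20 alternatives, 9 of them with 1 library left out, where the adjusted p reached 0.144. The log2 fold change itself stayed between 0.81 and 1.03 with 1 library left out and between 0.91 and 1.11 under the other alternatives. The adjusted p was 0.00079 by DESeq2 and 0.0187 with the replicate block in edgeR. The alternative without a filter, counted among those that kept the call, repeated the main fit.

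The other 9 neighbours had averaged drought log2 fold changes between -0.19 in Sobic.003G403400 and 0.48 in Sobic.003G402400 and were not called. In each line alone 0 of 10 were called for drought, where 0% of all genes were called in NIL-bri1-72 and 0.0144% in NIL-WT-72. Between the lines 0 of 10 were called, as were 0% of all genes in drought, in water and averaged, so these counts say nothing particular about the neighbours. The averaged line difference ran from -0.23 in Sobic.003G403300 to 0.20 in Sobic.003G404000, with a median of -0.02 beside -0.0029 over all genes. That of SbMATE, at -0.59, was larger than any of them, but its SE of 0.29 was larger too, against 0.07 to 0.21 in the neighbours.

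**Figure D5:**
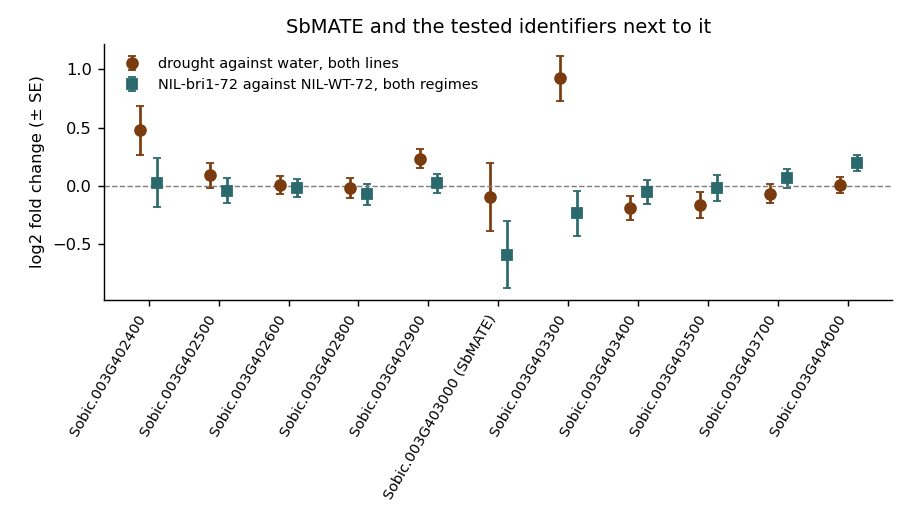
log2 fold change (± SE, edgeR) of Sobic.003G403000 (SbMATE) and of the 5 listed identifiers on each side of it on chromosome 3, for drought against water and for NIL-bri1-72 against NIL-WT-72. Sobic.003G403300 stands out for drought at 0.92, and SbMATE has the widest error bars.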

How the data were processed

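The authors deposited raw read counts per gene identifier for 12 root libraries. Per the submitters' processing notes, the tools were featureCounts 1.6.2, HISAT2 2.1.0, Trimmomatic 0.38 and FastQC 0.11.2. The libraries were stranded, but whether counting used the strand, and on which build and annotation, is not stated there or in the labels, and reads of an antisense partner may be included. All deposited identifiers exceeded a low floor in every library.

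Groups and replicate numbers came from the sample titles. The count test was edgeR 4.0.16 under R 4.3.3, with filterByExpr (20818 genes kept), TMM scaling and a quasi-likelihood fit of 4 group means over all 12 libraries. Benjamini-Hochberg adjusted p below 0.05 over all genes was called. SE was computed as |log2 fold change| over the root of the F statistic. log2 CPM used a prior count of 2. The fit was tested on simulated counts, with changed genes drawn from all listed genes and not at the spread of SbMATE. For drought in NIL-WT-72 it recovered 8% of 1.5-fold and 52% of 2-fold changes, with 11 of 138 calls false. For averaged drought it recovered 48% and 76%, and for the averaged line difference 54% and 90%. Small changes can thus be missed. Alternatives were DESeq2 1.42.0, limma 3.58.1 (voom), other scalings, a filter at 1 CPM, no filter, replicate blocks, the compared groups alone and left-out libraries. Since filterByExpr removed no gene, the fit without a filter was the same as the main fit. Exact permutation of the lines, blocks within the groups compared and the alternatives for Sobic.003G403300 were added after the data were examined. The values reported are unpaired. Same-numbered droughted and watered libraries deviated together in NIL-bri1-72 (r from 0.125 to 0.360) and in NIL-WT-72 (r from 0.0940 to 0.270). Pairs of different number had r from -0.280 to 0.0429 in NIL-bri1-72 and from -0.264 to 0.121 in NIL-WT-72. In NIL-WT-72 the ranges thus overlapped, and a pairing by number is less clear there. The paired fit, which changed no call for SbMATE, is among the alternatives. Whether replicates are separate plants is stated only as biological replicates.

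SbMATE and the lists were chosen with earlier results of these data known. Named genes were SbMATE, the 5 genes most like it and the 5 listed identifiers on each side. Lists by product description, among them other MATE genes, citrate metabolism and tissue markers, were not applied, because 0 identifiers matched the 32945 genes of the RefSeq table. No sequence is shown for the same reason.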

Additional observations from a re-analysis of the deposited data

How the results depend on the processing

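SbMATE passed the threshold in 0 of the 7 comparisons under any alternative. Its line differences kept a negative sign throughout, and the other directions depended on the setting. With 1 library left out, the log2 fold change ranged from -0.54 to 0.25 for drought in NIL-bri1-72, from -0.41 to 0.34 for drought in NIL-WT-72, from -0.34 to 0.17 for drought averaged, from -1.04 to -0.27 for the lines in drought, from -0.93 to -0.19 in water, from -0.85 to -0.34 averaged and from -0.63 to 0.16 for the interaction. Drought in NIL-WT-72 turned to -0.0436 by limma voom, to -0.0167 with a replicate block within its 6 libraries and to -0.48 without NIL-WT-72 watered replicate 1 and droughted replicate 3 together, where the interaction turned to 0.20; the cause was not tested. The paired fit with the replicate block over 12 libraries gave -0.25 for drought in NIL-bri1-72, 0.03 in NIL-WT-72 and -0.11 averaged, -0.76, -0.49 and -0.63 for the lines in drought, in water and averaged, and -0.28 for the interaction. Within NIL-bri1-72 alone the block gave -0.19. No block changed a call for SbMATE. Libraries of the same number correlated at 0.0940, 0.219 and 0.270 within NIL-WT-72, where pairs of different number reached 0.121. Between the lines, libraries of the same number correlated at -0.330 to 0.0998. The block over 12 libraries nonetheless gave each replicate number 1 effect shared by both lines. Its line values therefore do not check whether the lines were paired. Counts of called genes were far less stable. For averaged drought edgeR called 266 genes and DESeq2 1023, with 41 to 695 by edgeR with 1 library left out. For drought in NIL-WT-72 they called 3 and 305, with 0 to 55 by edgeR with 1 library left out. Without NIL-WT-72 watered replicate 1 and droughted replicate 3 together, edgeR called 933 for averaged drought and 200 for drought in NIL-WT-72. Sobic.003G403300 kept its size but not its call with RLE scaling (log2 fold change 0.92, adjusted p = 0.0513) and by voom (0.91, adjusted p = 0.0568). A prior count of 0.5 left each permutation p unchanged. At 53 to 193 reads per library, counting alone gives a coefficient of variation near 10.1%, below the spread between replicates in 3 of 4 groups.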
